A study of Mus musculus with 5 samples.

Results

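The tricarboxylic acid cycle enzymes examined here are 9 genes: Cs, Idh2, Idh3a, Idh3b, Ogdh, Suclg1, Sucla2, Fh1 and Mdh2. They were chosen by name, out of 22180 genes that had a probe set with exactly 1 gene symbol, and each gene had 1 such probe set and none shared with another gene. Heart RNA was measured on 5 whole-transcript arrays of male mice of the C57BL/6 background at 12 weeks of age. Of the wild type there were 3 arrays (replicates 3, 4 and 5). The Akita group held 2 arrays (replicates 1 and 3) of mice with a mutation in 1 of their copies of the insulin gene Ins2, labelled as a type 1 diabetic model; no treatment is named for either group. The mutation is carried in every cell, and its misfolded insulin harms the insulin-producing cells, so the heart meets it through the diabetic state. The labels do not say whether the numbered samples came from separate animals, and each p-value therefore speaks only of spread among these samples, some of which may be technical.

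The cycle is the shared last stage of fuel oxidation in mitochondria. Acetyl-CoA from fatty acids, glucose, ketone bodies or amino acids joins oxaloacetate to form citrate, which is then oxidised step by step back to oxaloacetate while electrons pass to NADH and to the respiratory chain. Heart muscle is dense in mitochondria and depends on this route for nearly all its ATP, and the insulin-deficient heart is known to burn more fatty acid and less glucose, both of which enter the cycle as acetyl-CoA.

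In the hearts compared here the 9 enzyme genes differed little between the groups. Every member lay within 0.18 log2 units of its wild type mean in the Akita mean, 6 of them lower and 3 higher, and 0 of 9 passed an adjusted p of 0.05 by limma, where 51 of 15528 genes tested did (0.328%). At an unadjusted p under 0.05 the count was also 0 of 9, against 13.6% of the genes tested; it was 2, Cs and Mdh2, when limma was run with an intensity trend and a robust prior together (14.7% of the genes tested) and 1, Mdh2, after quantile normalization again (14.1%). Mdh2, which closes the cycle, and Cs, which opens it, had the lowest differences, -0.18 and -0.15. Idh3a and Sucla2 had the highest, 0.09 and 0.08. The median over the members was -0.045, beside -0.032 over all genes tested, -0.072 over the 11092 brighter genes and -0.030 over the 548 with a mean of at least 10. With each array centred on its median it was 0.049 and only Mdh2, Cs and Ogdh lay lower, while the median over all genes tested was then 0.063.

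All 9 probe sets were bright, with means over the 5 arrays from 10.1 to 12.6 on the log2 scale. Each was at or above the 97.9th percentile of the genes on the array. Replicates of a member lay close together: its SD within groups ran from 0.021 to 0.12 with a median of 0.071, below the median of 0.144 over all genes tested in each of the 9. The 548 genes tested with a mean of at least 10 had a median SD of 0.080, close to that of the members. The 95% interval of a member's difference reached 0.24 to 0.29 log2 units to either side. In this fit the lowest bound among the members was -0.42, a ratio of 0.747, and the highest 0.38, a ratio of 1.30. Changes beyond those sizes lay outside the interval of every member in this fit, and each interval also held 0. Other settings moved the bounds: Sucla2 reached 0.48 with the arrays centred and Cs -0.46 after quantile normalization again. The interval of Mdh2 lay below 0 after quantile normalization again (-0.44 to -0.0093). With the intensity trend and robust prior, those of Mdh2 (-0.29 to -0.064) and Cs (-0.30 to -0.0027) did.

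**Figure D1:**
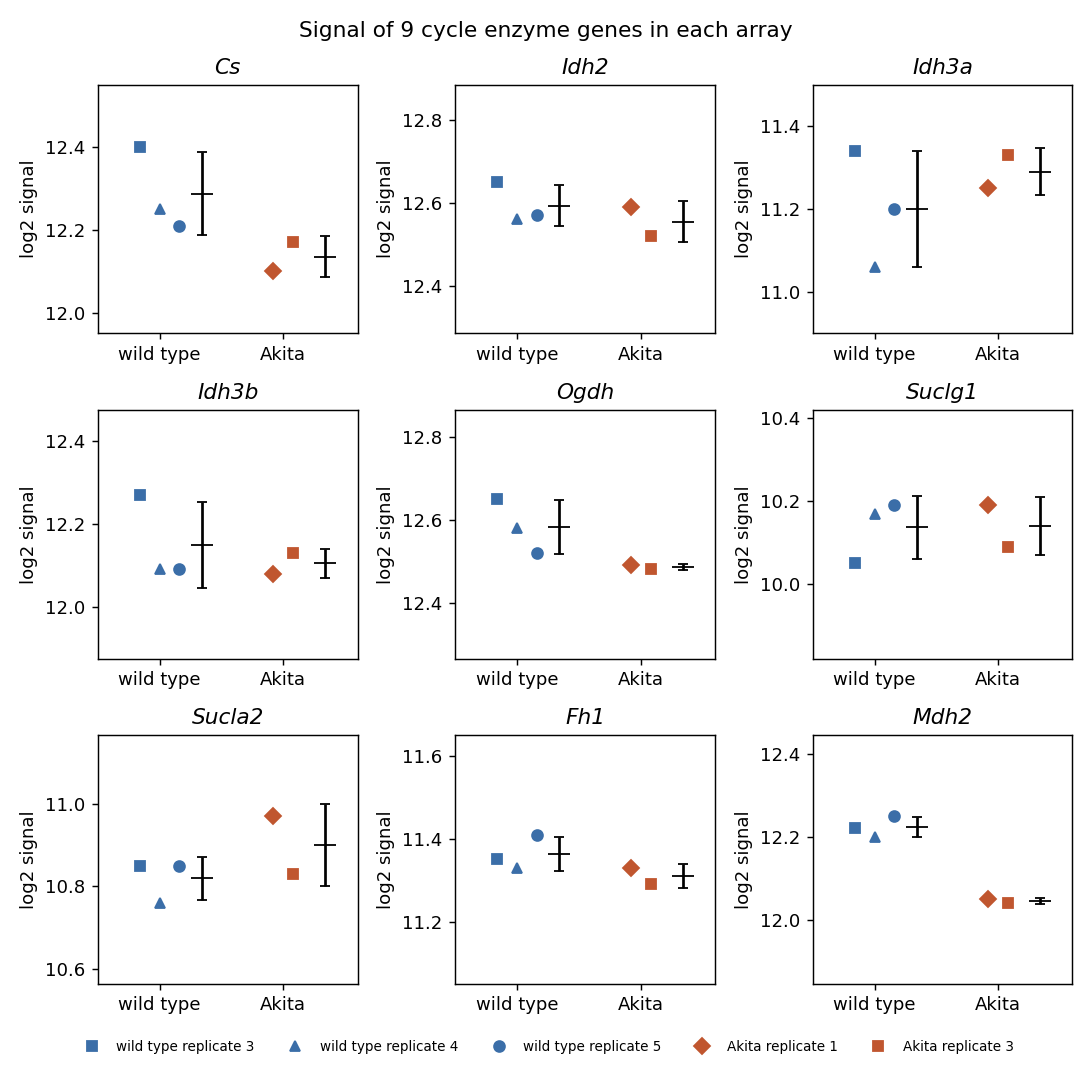
Each panel plots the log2 signal of a cycle enzyme gene in the 3 wild type (blue) and 2 Akita (orange) arrays, with the group mean ± SD in black; every vertical axis spans the same number of log2 units, centred on that gene. The groups stand apart in Mdh2, Cs and Ogdh, with Mdh2 at 12.20 to 12.25 in wild type and 12.04 to 12.05 in Akita, and they overlap in the other panels. They stood apart in 29.7% of all genes tested.

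Pearson correlations between arrays, across genes that are not independent replicates, ran within groups from 0.983 to 0.992 and between groups from 0.978 to 0.985. Ventricular myocyte markers were bright in all arrays, with mean log2 levels over 10 of 10 genes of 12.10 to 12.18 in wild type and 12.01 to 12.06 in Akita. Myl2 was the dimmest of them, at 8.55, 8.65 and 8.66 in wild type and 8.43 and 8.32 in Akita. Of the 10 markers 8 lay lower and 1 higher, where 56.4% of all genes tested lay lower, and 0 had an unadjusted limma p under 0.05. With each array centred on its median, 5 of them lay lower and 5 higher. The 5 atrial markers averaged 8.29 to 8.48 in wild type, 7.83 in Akita replicate 1 and 9.90 in replicate 3, and Sln and Myl7, both atrial genes, differed by 4.14 and 3.81 between the Akita arrays. The members differed by 0.01 to 0.14 between the same arrays, with a median of 0.07, against a median of 0.19 over all genes tested and 0.10 over those with a mean of at least 10. The 6 fibroblast markers averaged 8.67 to 8.82 in wild type and 8.84 and 9.40 in Akita replicates 1 and 3. The 6 white adipocyte markers averaged 5.66 to 5.78 in wild type and 6.01 and 6.21 in Akita. The 4 that passed the filter on dim genes were Plin1, Cidec, Retn and Fabp4, with differences of 0.46, 0.78, 0.43 and 0.32. Each lay above the wild type range in both Akita arrays, as 9.89% of the genes tested did. All 4 had an unadjusted limma p under 0.05 and were higher, as were 4.13% of the genes tested. None of the 4 passed the threshold (limma adjusted p = 0.212, 0.219, 0.234 and 0.291). Adipoq and Lep were under the filter, and their groups overlapped. The 4 brown adipocyte markers averaged 6.80 to 6.83 in wild type and 7.10 and 7.55 in Akita. Among them Ucp1, the uncoupling protein of brown fat, read 4.36, 4.21 and 4.17 in wild type and 5.35 and 6.82 in Akita (difference 1.84, limma adjusted p = 0.131). None of the other brown adipocyte markers rose as far. Cidea read 8.33, 8.37 and 8.26 in wild type and 8.37 and 8.82 in Akita, with Akita replicate 3 above the wild type range. Its difference was 0.275 with overlapping groups. Cox8b differed by -0.027 with overlapping groups, and Elovl3, under the filter, by -0.068. The 5 macrophage markers averaged 7.54 to 7.69 in wild type and 7.04 and 7.34 in Akita. All 5 lay lower, as did 56.4% of the genes tested. At an unadjusted limma p under 0.05 there were 3 lower, against 9.49% of the genes tested, and 0 passed the threshold. The part of these shifts in the members' values was not tested. In whole heart RNA, fewer myocytes and less RNA per myocyte cannot be told apart.

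Cs encodes citrate synthase, which joins acetyl-CoA to oxaloacetate and is widely used as a measure of mitochondrial content. Its log2 signal was 12.40, 12.25 and 12.21 in wild type replicates 3, 4 and 5 and 12.10 and 12.17 in Akita replicates 1 and 3. Both Akita arrays lay under the lowest wild type array, by 0.04 in the nearer case, and wild type replicate 3 stood above the rest. The means were 12.29 ± 0.10 (SD, n = 3) and 12.14 ± 0.05 (SD, n = 2), a log2 difference of -0.15 (SE 0.11, limma adjusted p = 0.607, 95% interval -0.42 to 0.12). Without wild type replicate 3 the difference was -0.095, and without wild type replicate 5 it was -0.19.

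Mdh2 encodes mitochondrial malate dehydrogenase, which restores oxaloacetate and is also part of the malate-aspartate shuttle. It read 12.22, 12.20 and 12.25 in the wild type arrays and 12.05 and 12.04 in the Akita arrays. These were the narrowest groups that stood clear of each other among the members, with a gap of 0.15 and a range of 0.05 in wild type. The difference was -0.18 (SE 0.10, limma adjusted p = 0.497, 95% interval -0.42 to 0.063), a ratio of 0.884. It ran from -0.19 to -0.165 with any array left out. The limma SE takes in the spread of other genes, which is wider than that of Mdh2: with an intensity trend and a robust prior together, the SE was 0.051 and the unadjusted p by limma 0.0061, with adjusted p = 0.146. Centring each array on its median left -0.084 of the difference.

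The promoters of Cs, Mdh2 and Ogdh are shown because the groups stood apart in these members, as they did in 29.7% of the genes tested. For Ogdh, which has several annotated starts, the window shown is the upstream one of a pair that overlap and hold the core of the site of NRF1, a factor known for driving nuclear genes of mitochondria. RefSeq windows on GRCm38.p6 were matched by symbol for 8 of the 9 members, 13 windows in all, 6 of them of Ogdh. Each run holds the 250 bases before the annotated start, 5′ to 3′ on the gene's strand, and capitals mark the matches.
Cs, chr10:128337477-128337726, plus strand: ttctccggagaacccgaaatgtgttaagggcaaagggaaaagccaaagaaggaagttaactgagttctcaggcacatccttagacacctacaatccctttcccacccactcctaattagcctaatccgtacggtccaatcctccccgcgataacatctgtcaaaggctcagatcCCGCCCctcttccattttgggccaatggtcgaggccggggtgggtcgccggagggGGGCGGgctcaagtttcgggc
Mdh2, chr5:135778399-135778648, plus strand: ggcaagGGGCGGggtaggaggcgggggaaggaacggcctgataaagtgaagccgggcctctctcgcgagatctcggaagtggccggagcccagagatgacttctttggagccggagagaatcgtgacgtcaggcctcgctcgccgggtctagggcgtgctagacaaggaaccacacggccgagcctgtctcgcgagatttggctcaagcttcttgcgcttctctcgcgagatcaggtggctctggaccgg
Ogdh, chr11:6292308-6292557, plus strand: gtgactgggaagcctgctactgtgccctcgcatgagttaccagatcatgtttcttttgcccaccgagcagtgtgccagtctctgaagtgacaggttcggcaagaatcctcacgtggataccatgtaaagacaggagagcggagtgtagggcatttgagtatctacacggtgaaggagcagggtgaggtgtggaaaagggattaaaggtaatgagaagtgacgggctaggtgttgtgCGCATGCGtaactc
The letters searched, on both strands, were GCATGCG for the core of the NRF1 site, AAGGTCA for the core read by estrogen-related receptors, CCGGAAG for the core read by GABP and GGGCGG for the GC box read by Sp1. The NRF1 letters, which read into each other on the strands and so mark a run of 8 bases, were found among the members before Ogdh only, in some of its windows. They stand in 3.02% of 32851 windows of the same length. These letters were settled after matches to a longer form had been seen. The GC box was found before Cs, Fh1, Idh2, Mdh2, Ogdh and Sucla2, 6 of the 8 members with a window, and stands in 32.7% of all windows. The receptor core (4.08% of all windows) and the GABP core (6.91%) were found before 0 of the 8. The members were counted by gene and the shares by window, which are unlike measures. A gene with several windows, such as Ogdh, had more places for a match. A match is a description of the letters only. Sucla2, with a difference above 0, held a GC box like Cs and Mdh2, with the lowest differences. None of these differences passed the threshold, and a link between the GC box and a difference was not tested.

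Isocitrate dehydrogenation is carried out by separate enzymes in mitochondria. Idh3a and Idh3b encode the catalytic and a regulatory subunit of the NAD-dependent enzyme of the cycle, and Idh2 encodes the NADP-dependent enzyme that supplies NADPH for antioxidant defence. Idh3a read 11.34, 11.06 and 11.20 in wild type and 11.25 and 11.33 in Akita. The wild type arrays alone spanned 0.28 and enclosed both Akita arrays. Its difference was 0.09 (SE 0.12, limma adjusted p = 0.797), the highest of the 9, and ran from 0.02 without wild type replicate 4 to 0.16 without wild type replicate 3.

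Idh3b read 12.27, 12.09 and 12.09 in wild type and 12.08 and 12.13 in Akita. Wild type replicate 3 was high and the other 4 arrays lay within 0.05 of each other; the difference was -0.045 (SE 0.11, limma adjusted p = 0.903) and 0.015 without that array. Idh2 read 12.65, 12.56 and 12.57 in wild type and 12.59 and 12.52 in Akita. Its groups overlapped, and its difference was -0.038 (SE 0.11, limma adjusted p = 0.911). Idh3g, which encodes the other regulatory subunit of the NAD-dependent enzyme, had a difference of -0.18 (SE 0.11, limma adjusted p = 0.523), with both Akita arrays below the wild type range. The subunit genes of this enzyme thus had differences of both signs, none of them past the threshold.

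Ogdh encodes the substrate-binding component of the 2-oxoglutarate dehydrogenase complex, which commits carbon to succinyl-CoA. It read 12.65, 12.58 and 12.52 in wild type and 12.49 and 12.48 in Akita. Both Akita arrays lay just under the lowest wild type array, by 0.03 in the nearer case. The difference was -0.098 (SE 0.11, limma adjusted p = 0.731, 95% interval -0.35 to 0.15) and -0.0042 with the arrays centred. Ogdhl encodes a related enzyme of the same kind, best known from brain. It read 9.11, 9.19 and 9.14 in wild type and 8.68 and 8.59 in Akita, well apart, with a difference of -0.51 (SE 0.11, limma unadjusted p = 0.0017, adjusted p = 0.137). With the intensity trend and robust prior, Ogdhl passed the threshold (limma adjusted p = 0.0264). Dlst and Dld, which encode the other catalytic components of the complex, lay above the wild type range in both Akita arrays, with differences of 0.12 and 0.098 (limma adjusted p = 0.670 and 0.730).

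Succinyl-CoA ligase makes ATP or GTP as it releases succinate. Suclg1 encodes the shared alpha subunit, Sucla2 the ATP-forming beta subunit and Suclg2 the GTP-forming one. Suclg1 read 10.05, 10.17 and 10.19 in wild type and 10.19 and 10.09 in Akita. It had the smallest difference of the members, 0.0033 (SE 0.11, limma adjusted p = 0.992, 95% interval -0.26 to 0.26). Sucla2 read 10.85, 10.76 and 10.85 in wild type and 10.97 and 10.83 in Akita. Akita replicate 1 was its highest array and replicate 3 lay inside the wild type range. Its difference was 0.08 (SE 0.11, limma adjusted p = 0.798), 0.01 without Akita replicate 1 and 0.15 without replicate 3. Suclg2 also differed by 0.08 (limma adjusted p = 0.825).

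Fh1 encodes fumarate hydratase, which turns fumarate into malate. It read 11.35, 11.33 and 11.41 in wild type and 11.33 and 11.29 in Akita, and Akita replicate 1 equalled wild type replicate 4. Its difference was -0.053 (SE 0.10, limma adjusted p = 0.869). In all, both Akita arrays lay outside the wild type range in 3 of 9 members, Cs, Ogdh and Mdh2, where this held for 29.7% of the genes tested. They lay below it in all 3, as in 19.9% of the genes tested, and above it in 0 members, against 9.89% of the genes tested.

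The step before Fh1, succinate dehydrogenase, also serves as complex II of the respiratory chain. Its subunit genes did not show a common difference. Sdhc, which encodes a membrane anchor, read 11.27, 11.07 and 11.15 in wild type and 10.67 and 10.75 in Akita, with no overlap. Its difference was -0.45 (SE 0.11, limma unadjusted p = 0.0050, adjusted p = 0.189), and adjusted p = 0.0257 with the intensity trend and robust prior. Sdha, Sdhb and Sdhd differed by -0.012, 0.018 and 0.022 (limma adjusted p = 0.975, 0.962 and 0.956). Mrps36, listed here because its product is now known as an adaptor of the 2-oxoglutarate dehydrogenase complex, was dim, reading 5.29, 5.01 and 4.91 in wild type and 4.42 and 4.86 in Akita. Its difference was -0.43 (limma adjusted p = 0.346); it was -0.21 without Akita replicate 1 and -0.65 without replicate 3. Of the 10 other cycle enzyme genes tested, 5 lay higher and 5 lower with a median of 0.0033, 0 passed the threshold over all genes and 3, all lower, had an unadjusted p under 0.05, against 9.49% of all genes tested.

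**Figure D2:**
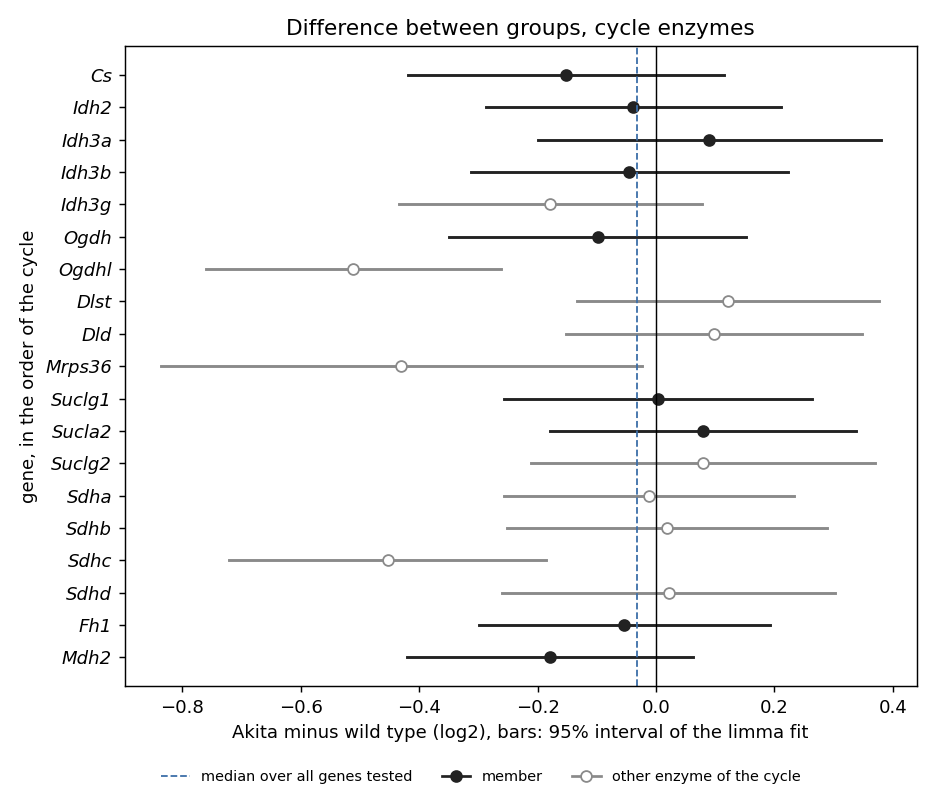
The horizontal axis gives the log2 difference, Akita minus wild type, of each cycle enzyme gene with the 95% interval of the limma fit, in the order of the cycle; filled black points are the 9 members and open grey points the other enzymes. All member intervals include 0, while those of Ogdhl, Sdhc and Mrps36, at -0.51, -0.45 and -0.43, lie below it.

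Some members have a close relative in another compartment, with another cofactor or, as Ogdhl, of the same kind. The pairs were compared within each array, which removes any shift shared by the array. The 4 pairs were picked with their values already known. The difference of Ogdh minus Ogdhl was higher in both Akita arrays, by 0.37 and 0.45 over the wild type mean, where the wild type arrays lay between -0.057 and 0.10 (exact permutation test, two-sided, p = 0.1, adjusted 0.267 over the 4 pairs). A test of 3 arrays against 2 cannot give less than 0.1. Mdh2 minus Mdh1, the mitochondrial over the cytosolic malate dehydrogenase, was lower by 0.077 and 0.11 in Akita (mean -0.092, exact permutation p = 0.2), and Mdh1 itself differed by -0.087. Idh2 minus Idh1 stood at -0.34 in Akita replicate 1 and -0.03 in replicate 3 (exact permutation p = 0.2). Sucla2 minus Suclg2 had group means 0 apart, with a wild type SD of 0.12 (exact permutation p = 1).

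Genes around the cycle lay mostly lower in Akita in the values as deposited. Over the 52 genes tested in the 7 lists around the cycle, 41 lay lower and 11 higher, with a median of -0.13, where 56.4% of all genes tested lay lower. Of the 11092 brighter genes, those at or above the 50th percentile of mean signal, 65.5% lay lower, with a median of -0.072. With the arrays centred 31 of the 52 lay lower and 21 higher. By limma 0 of the 52 passed the threshold, and at an unadjusted p under 0.05 there were 8 lower, against 9.49% of all genes tested, and 0 higher, against 4.13%. With only the brighter genes tested, 13.9% of them were lower and 2.95% higher at that unadjusted limma p. With the arrays centred 4 of the 52 were lower, against 5.11% of all genes tested, and 1 higher, against 7.65%. No test compared the lists with other genes.

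Among enzymes of entry and exit, 14 of 14 lay lower (10 of 14 with the arrays centred), with a median of -0.15. Pcx, pyruvate carboxylase, which refills oxaloacetate, read 6.95, 7.08 and 6.79 in wild type and 6.54 and 6.35 in Akita (difference -0.495, SE 0.13, limma adjusted p = 0.205). Oxct1, which activates ketone bodies for entry as acetyl-CoA, and Got2, the mitochondrial aspartate aminotransferase, had differences of -0.22 and -0.23 (limma adjusted p = 0.470 and 0.489). In the pyruvate dehydrogenase complex, which feeds glucose carbon to Cs, 3 of 4 genes lay lower with a median of -0.063 and 0 had an unadjusted p under 0.05. Pdhx differed by -0.185, Pdha1 by 0.085 (-0.0050 without wild type replicate 4) and Dlat by -0.077 (0 without wild type replicate 3).

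The cytosolic counterparts of cycle enzymes held differences of both signs. Got1, the cytosolic aspartate aminotransferase, read 12.29, 12.07 and 12.08 in wild type and 11.79 and 11.76 in Akita (difference -0.37, SE 0.12, limma adjusted p = 0.264, and 0.0477 with the intensity trend and robust prior). Me1, cytosolic malic enzyme, lay above the wild type range in both Akita arrays, with a difference of 0.26 (SE 0.11, limma adjusted p = 0.374). Idh1 differed by 0.15, which became -0.043 without Akita replicate 1 and 0.34 without replicate 3. Of these 5 genes 3 lay lower, with a median of -0.087.

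Carriers of cycle intermediates lay lower in 5 of 6 cases (median -0.13, 4 of 6 with the arrays centred), with 0 at an unadjusted p under 0.05. Mpc1, a subunit of the pyruvate carrier, differed by -0.14 (-0.057 without Akita replicate 3), Slc25a1, the citrate carrier, by 0.16 (-0.013 without Akita replicate 3 and 0.34 without replicate 1), and Slc25a11, which exchanges 2-oxoglutarate for malate, by -0.13 (-0.063 without Akita replicate 1). Of the succinate dehydrogenase assembly factors 3 of 4 lay lower. Sdhaf1 differed by -0.355 (limma adjusted p = 0.276), and Sdhaf3 and Sdhaf4 by -0.16 each.

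Regulators of mitochondrial genes lay lower in 8 of 9 cases (median -0.15, 7 of 9 with the arrays centred). Nrf1 read 6.52, 6.40 and 6.45 in wild type and 6.00 and 6.12 in Akita (difference -0.40, SE 0.11, limma adjusted p = 0.215). Perm1, a muscle regulator of oxidative genes, differed by -0.27 (limma adjusted p = 0.359), and Tfam, which packages mitochondrial DNA and starts its transcription, by -0.215 (limma adjusted p = 0.432). Ppargc1a, the co-activator of mitochondrial biogenesis, differed by -0.15 with overlapping groups. Ogdh, with the NRF1 letters in the window shown, differed by -0.098, and by -0.0042 with the arrays centred. A link between Nrf1 and Ogdh was not tested.

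**Figure D3:**
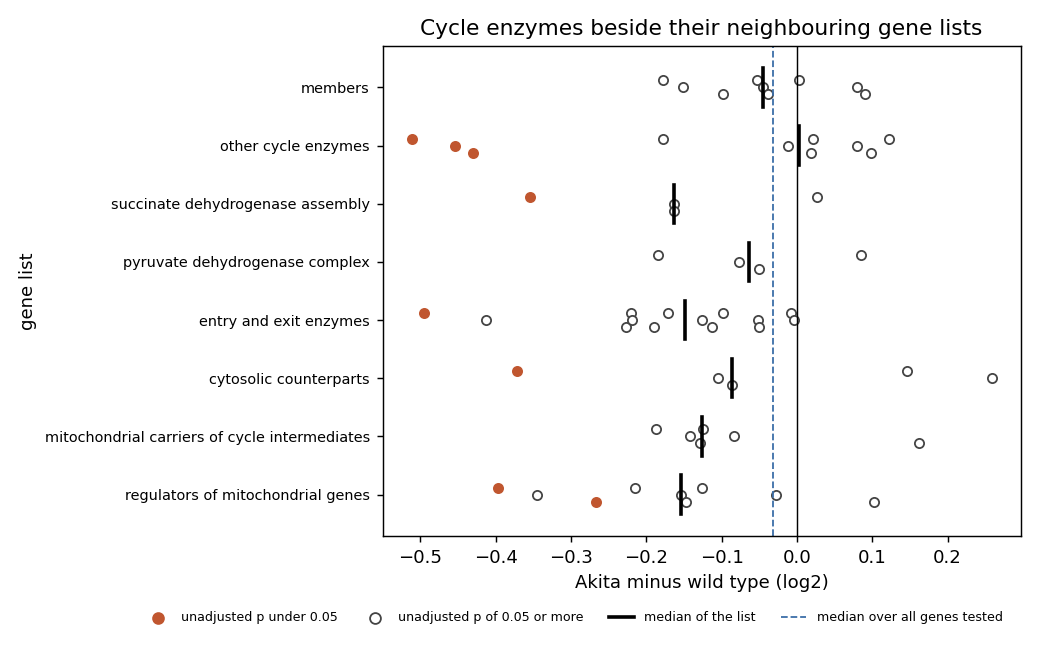
Each point is the log2 difference, Akita minus wild type, of a gene of the members or of a list around the cycle, filled where the unadjusted limma p is under 0.05; black bars are list medians and the dashed line is the median over all genes tested, -0.032. The members lie between -0.18 and 0.09, and 8 genes of the other lists are filled, all of them lower in Akita.

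**Figure D4:**
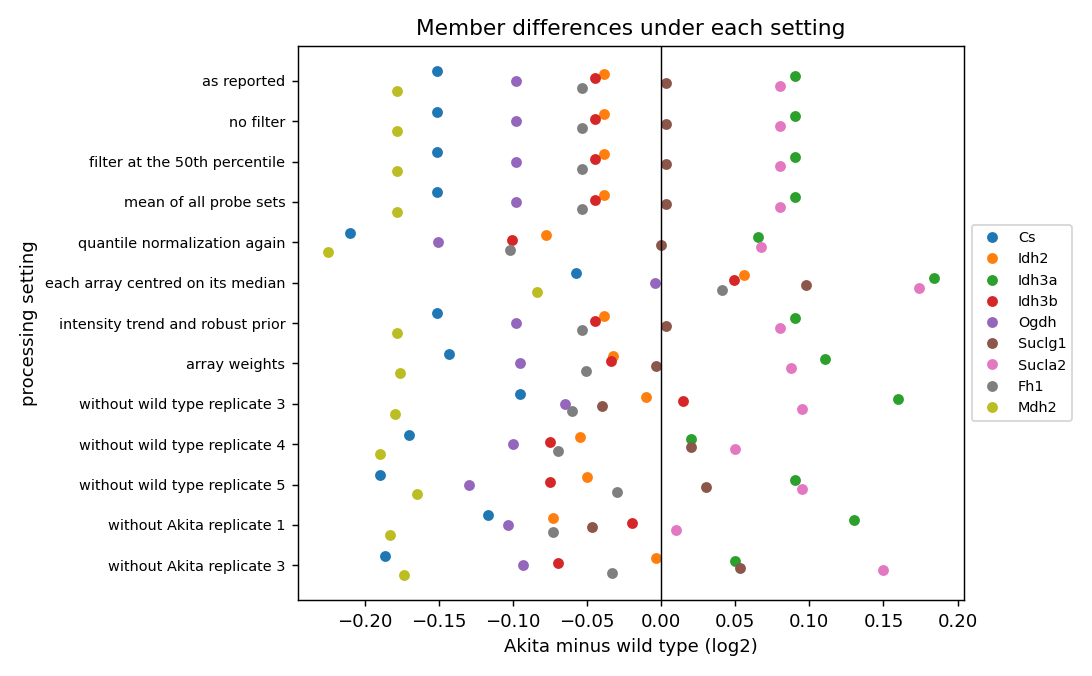
Each row plots the log2 differences, Akita minus wild type, of the 9 members under a processing setting. Mdh2, Cs and Ogdh stay below 0 and Idh3a and Sucla2 above it in every row, while centring moves all points up by the same amount. The other filters, the averaging of probe sets and the intensity trend with a robust prior could not move the points.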

How the data were processed

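The authors deposited log2 signals, 1 per probe set and array, made with Affymetrix Expression Console per the submitters' processing notes; for its version, the summarisation and the normalization between arrays, the sources used here give nothing. If arrays were equalised, a shift common to most genes would be hidden. The log base was read from the range, 1.27 to 13.66.

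Of 41345 probe sets, 23521 had exactly 1 symbol in the platform annotation, 1814 several, and 16010 were not listed there and not used here. Each gene was represented by its probe set of highest mean. The filter on dim genes removed those with a mean signal under the 30th percentile (log2 4.06); all 9 members passed, each through both groups. Akita minus wild type was tested on all 5 arrays with limma 3.58.1 in R 4.3.3 (lmFit, eBayes, two-sided, Benjamini-Hochberg over all genes tested). Residual degrees of freedom were 3, and 4.38 came from the prior. It was checked on simulated data. Recovery was read there for changes of 1 log2 unit and above, larger than any member's difference. The check therefore does not speak of changes as small as those of the members. Relatives were compared by an exact permutation test over 10 splits of the arrays.

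The members and lists were chosen with earlier results of these data known. Genes named are the members, of each list those past the threshold or otherwise the 3 of smallest p, the other subunits of the members' complexes, and, chosen with their values known, Mdh1, Ppargc1a, Nnt, Sln, Myl7, Myl2 and the adipocyte markers named. Alternatives tried were array weights, an intensity trend together with a robust prior, arrays centred or quantile-normalized once more, probe sets averaged per gene, other filters, a threshold of 0.1 and the removal of each array in turn. With an Akita array left out, the other was assumed to vary like the wild type arrays. The labels name no batch. The number of arrays limits the precision. Python 3.11.15 with pandas 2.3.3 and matplotlib 3.10.9 drew the figures.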

Additional observations from a re-analysis of the deposited data

How the results depend on the processing

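The count of members past the threshold was 0 under each alternative run, which in a design of this size does not show that they are equal. No call was made for a member, so none could be lost. The median over the members was -0.10 after quantile normalization again and 0.049 with the arrays centred, against -0.045; it ran from -0.073 to -0.033 with an array left out. Mdh2, Cs, Ogdh, Idh3a and Sucla2 kept the sign of their difference under all 12 settings, and Idh2, Idh3b, Fh1 and Suclg1, all under 0.06 in size, did not. The other filters, the averaging of probe sets and the intensity trend with a robust prior could not change any of these differences. Each member had 1 probe set, and those settings left its values as they were. The number of all genes past the threshold, 51, was 86 with no filter on dim genes, 30 with the arrays centred (25 higher and 5 lower), 197 with an intensity trend and robust prior (60 higher and 137 lower), 28 with array weights and 96 at a threshold of 0.1. It ran from 9 to 44 with an array left out: 9, 14 and 21 without wild type replicates 3, 4 and 5, and for the Akita arrays 44 without replicate 1 and 11 without replicate 3. Ogdh minus Ogdhl was 0.31 after quantile normalization again and 0.37 to 0.47 with an array left out. No paired analysis was made, because the labels used here state no pairs between the groups. The replicate number 3 occurs in both groups, but nothing says that these samples belong together.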

Other observations

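Nnt, which encodes the mitochondrial transhydrogenase that links NADH to NADPH, is known to carry a deletion of several exons in the C57BL/6J substrain; the labels give C57BL/6 without a substrain. Its probe set read 10.39, 10.37 and 10.25 in wild type and 10.18 and 10.24 in Akita. The groups did not overlap, and the difference was -0.13 (limma adjusted p = 0.660).

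The mean profile of the 9 members over the 5 arrays, after centring each gene, was 0.064, -0.022 and 0.01 in wild type replicates 3, 4 and 5 and -0.017 and -0.036 in Akita replicates 1 and 3. Wild type replicate 3 was the highest array of the profile, by more than the distance between the group means. The genes outside the lists with the most similar profile were Zfp235, Nudt19, Mfsd4b5, Lrat and Lrrc52, with Pearson coefficients of 0.987 to 0.993 over the 5 arrays, among 9915 genes with a range of at least 0.3. This describes 5 arrays only, and 114 of those genes had a coefficient over 0.9.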
